A study of Mus musculus with 9 samples.

Results

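The 10 genes described here mark primitive endoderm and were read in mouse embryonic stem cells with and without Sirt6. They were taken as a named list from the 23366 rows of the deposited count table, and all 10 were present: the transcription factor genes Gata4, Gata6, Sox17, Sox7 and Foxa2, the receptor tyrosine kinase gene Pdgfra, and the endocytic genes Dab2, Cubn, Amn and Lrp2. The cells were of strain 129 SvJae F1 at passage 21 and were kept in medium with serum and leukaemia inhibitory factor (LIF). The wild-type group (3 libraries) carried no stated alteration, and the knockout group (3 libraries) lacked SIRT6, a histone deacetylase that the series title ties to polymerase pausing. The labels do not say how the gene was removed, how many clones each group stands for, or whether the replicates were separate cultures, so the p-values rest on a spread between libraries that could be purely technical. Wild-type cells deprived of glucose form another group of 3 samples and were not analysed here.

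Primitive endoderm is the extraembryonic layer that separates from the epiblast in the blastocyst and later forms the visceral and parietal endoderm of the yolk sac. FGF signalling through ERK raises GATA6 in some cells of the inner cell mass, GATA6 opposes NANOG, and PDGFRA, SOX17, GATA4, SOX7 and FOXA2 appear in the cells that take this path. The visceral endoderm feeds the embryo by taking up proteins, lipids and vitamin carriers, through a receptor system of cubilin (Cubn), amnionless (Amn) and megalin (Lrp2) with the clathrin adaptor DAB2. Stem cells grown in serum are known to contain scattered cells that turn on this programme.

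The upstream sequences of the 3 receptor genes are shown because these genes belong to one uptake complex and differed in their change, as given further down. They are the 250 bases before the annotated start in the RefSeq table (GRCm38.p6), written 5′ to 3′ on the gene's strand, with each CG pair in capitals. The Cubn stretch lies at chr2:13491877-13492126 (minus strand), that of Amn at chr12:111270846-111271095 (plus strand) and that of Lrp2 at chr2:69586030-69586279 (minus strand).
Cubn: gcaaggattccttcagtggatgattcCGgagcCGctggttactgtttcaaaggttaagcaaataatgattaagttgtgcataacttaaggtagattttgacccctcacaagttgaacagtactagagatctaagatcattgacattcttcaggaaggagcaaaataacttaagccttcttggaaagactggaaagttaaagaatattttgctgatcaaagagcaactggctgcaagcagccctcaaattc
Amn: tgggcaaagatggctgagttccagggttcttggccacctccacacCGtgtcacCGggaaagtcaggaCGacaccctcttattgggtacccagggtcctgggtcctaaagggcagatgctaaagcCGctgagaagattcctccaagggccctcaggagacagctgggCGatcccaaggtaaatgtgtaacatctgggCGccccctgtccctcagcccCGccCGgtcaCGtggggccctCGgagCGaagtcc
Lrp2: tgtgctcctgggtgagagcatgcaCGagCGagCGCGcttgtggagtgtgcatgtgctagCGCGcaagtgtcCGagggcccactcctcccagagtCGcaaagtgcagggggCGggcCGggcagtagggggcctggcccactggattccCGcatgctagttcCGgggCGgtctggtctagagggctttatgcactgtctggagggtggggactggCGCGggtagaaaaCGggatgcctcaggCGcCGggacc
The Cubn stretch held 2 CG pairs and 39.6% G or C, that of Amn 11 pairs and 61.2%, and that of Lrp2 18 pairs and 66.4%. Over the 32851 windows of the table the medians were 6 pairs and 52.4%. Dab2 has an annotated start for each of its 2 windows, one with 2 CG pairs and the other with 17. The Foxa2 windows held 6, 20 and 13 pairs and the Pdgfra window 4. Any link of CG content to the change in expression was not tested.

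The windows of 300 bases (250 before and 50 after the start) were also searched on both strands for the GATA motifs AGATAA and TGATAA, the SOX motif ACAATGG and the FOX motif TGTTTAC. The 2 GATA motifs can share bases where they adjoin. Windows were found for 6 of the 10 genes, 9 windows in all, and none was listed for Gata4, Gata6, Sox17 or Sox7. A GATA motif occurred in 1 of the 3 Foxa2 windows and in 1 of the 2 Dab2 windows, while 18.6% of all windows held one. The Dab2 window is shown because it held 2 of the 3 matches. Its bases before the start (chr15:6299539-6299788, plus strand, GRCm38.p6) follow with the match TGATAA in capitals; the other match lies just past the start.
Dab2: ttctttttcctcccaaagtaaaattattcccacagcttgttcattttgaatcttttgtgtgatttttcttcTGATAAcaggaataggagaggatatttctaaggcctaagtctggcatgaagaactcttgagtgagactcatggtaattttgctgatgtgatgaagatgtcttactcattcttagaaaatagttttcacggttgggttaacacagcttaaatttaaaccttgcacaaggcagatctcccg
No SOX or FOX motif was found in the 9 windows, against 3.66% and 3.65% of all windows. The windows of Cubn, Amn, Lrp2 and Pdgfra held none of the 4 motifs. These matches describe letters in the reference and not bound sites.

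Total counts ran from 20107037 to 29267115 per library. Sirt6 had 348, 341 and 342 counts in the wild-type libraries against 12, 6 and 6 in the knockout libraries, a 42.2-fold lower level in the direction of the labels. Of 14988 genes tested with edgeR (quasi-likelihood, adjusted p below 0.05), 4163 were lower in the knockout and 4182 higher; with total counts as the scaling, which moves the median of all genes from 0.01 to 0.13 on the log2 scale, 3102 were lower and 5113 higher. Both groups expressed the stem cell markers Pou5f1 and Nanog. Pou5f1 was at 1650 ± 133 CPM (counts scaled to library size) in wild type and 1198 ± 152 in the knockout, and Nanog at 365 ± 10.1 and 292 ± 13.2 CPM (SD, n = 3). Each was called lower in the knockout (-0.46 and -0.32 on the log2 scale, adjusted p = 0.0108 and 0.0139, edgeR). Transcripts of the Y chromosome rose in the knockout (Ddx3y 3.56, Uty 2.38 and Eif2s3y 1.88 on the log2 scale) and Xist fell (-3.24). Kdm5d was also called higher, with 0 counts in all wild-type libraries together and 191 in the knockout. The groups therefore differ in sex chromosome transcripts as well as in Sirt6, and these differences cannot be told apart from the loss of Sirt6.

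Most of the primitive endoderm genes were lower in the knockout, from wild-type levels that were below 10 CPM except for Cubn and Lrp2. Of 9 genes that passed the filter on low counts, 8 fell and 0 rose, where 27.8% of all tested genes were called lower, 27.9% higher and 55.7% in either direction. Amn did not pass the test, and Foxa2 was too low to be tested. The median log2 fold change of the 9 was -1.90, against 0.01 over all tested genes. In 9 of the 10 genes every knockout library lay below every wild-type library, as it did in 32.0% of all tested genes. In 0 of the 10 did every knockout library lie above, against 31.2% of all tested genes, and the groups were apart in either direction in 63.2%. Cubn, Gata6, Sox7 and Pdgfra had a fitted change of -2 or less, a count of 4 of 9, against 1.75% of all tested genes. The summed level of the 10 genes was 115 to 124 CPM in wild type and 45.1 to 69.9 CPM in the knockout. Without Lrp2, which made up most of the sum, it was 48.6 to 51.2 CPM against 6.71 to 9.54 CPM. In bulk RNA, fewer endoderm-like cells and less RNA per cell cannot be told apart.

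**Figure D1:**
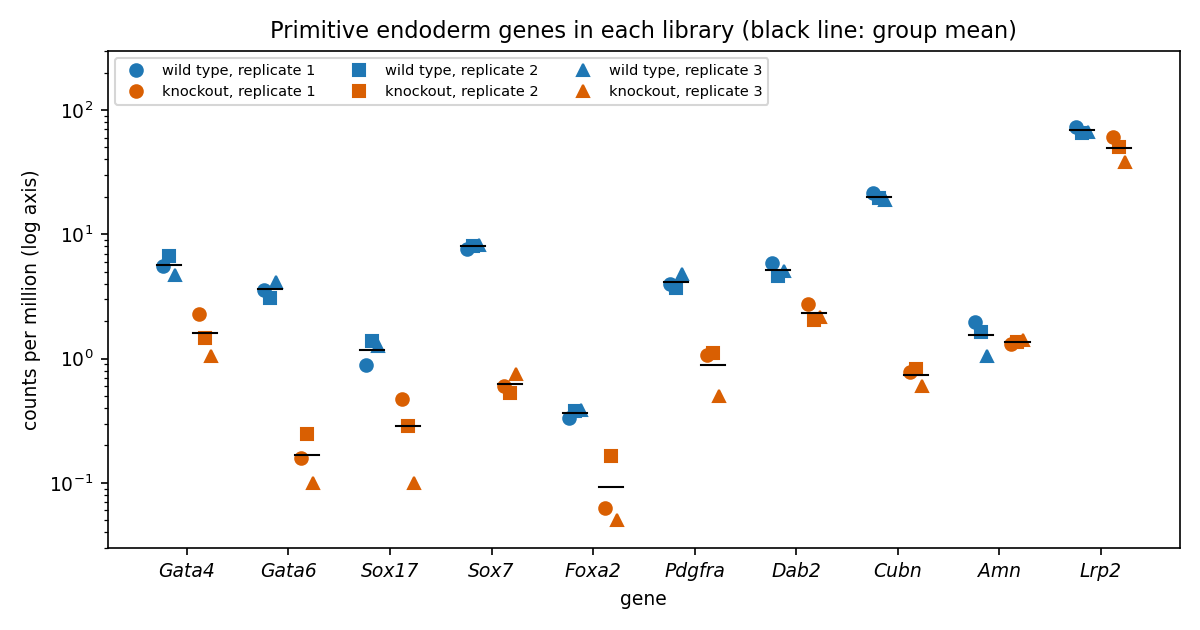
Level of each gene in CPM (log axis) in the 3 wild-type libraries (blue) and the 3 knockout libraries (orange), with marker shape for the replicate number and a black line at the group mean. The groups are apart in all genes but Amn, and the gap is widest for Cubn, at 18.9 to 21.3 CPM against 0.60 to 0.819 CPM.

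Among the transcription factor genes, Gata6 showed the largest fall and Gata4, Sox17 and Sox7 fell as well. Gata6, whose product starts the primitive endoderm programme, was at 3.58, 3.09 and 4.17 CPM in wild-type replicates 1 to 3. In the knockout it was at 0.157, 0.246 and 0.100 CPM, from 5, 6 and 2 counts. The groups lay far apart, with a 20.7-fold lower level in the knockout (log2 fold change -4.37 ± 0.30 SE, adjusted p = 8.94e-07, edgeR). Gata4, a related zinc finger factor that acts after GATA6 in this lineage, was at 5.59, 6.69 and 4.67 CPM in wild type and 2.30, 1.47 and 1.05 CPM in the knockout. All 3 knockout libraries were low, the highest of them at less than the lowest wild-type library. Gata4 fell 3.38-fold (-1.76 ± 0.25, adjusted p = 0.000137, edgeR).

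The SOX factor genes Sox7 and Sox17, which encode close relatives of one subgroup, both fell. Sox7 was at 7.67, 8.11 and 8.26 CPM in wild type, the smallest relative spread of the 10 genes there, and at 0.598, 0.532 and 0.751 CPM in the knockout. It fell 12.9-fold (-3.69 ± 0.18, adjusted p = 1.32e-07, edgeR). Sox17, a regulator of both primitive and definitive endoderm, was at 0.894, 1.38 and 1.27 CPM in wild type and at 0.472, 0.286 and 0.100 CPM in the knockout, where it had 15, 7 and 2 counts. Its groups did not overlap, but the knockout libraries differed from each other 4.72-fold from highest to lowest. Sox17 fell 3.74-fold (-1.90 ± 0.39, adjusted p = 0.00179, edgeR), and its interval of -2.77 to -1.04 is the widest of the tested genes.

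Foxa2, a forkhead factor gene of endoderm, was near the limit of detection. Its counts were 9, 9 and 10 in wild-type libraries and 2, 4 and 1 in knockout libraries, or 0.335, 0.376 and 0.386 CPM against 0.0629, 0.164 and 0.050 CPM. The summed counts of 28 and 7 give a 3.98-fold lower level, with an exact 95% counting interval of 1.70-fold to 10.8-fold that leaves out the variation between libraries. With no filter on low counts it was called lower (-1.94 ± 0.61, adjusted p = 0.0149 among 19696 genes, edgeR). In the authors' deposited table it stood at -1.33 with an adjusted p of 0.0348.

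Pdgfra, the receptor for platelet-derived growth factor A that marks early primitive endoderm on the cell surface, fell 4.51-fold. It was at 3.95, 3.72 and 4.83 CPM in wild type and 1.07, 1.11 and 0.500 CPM in the knockout (-2.17 ± 0.25, adjusted p = 3.05e-05, edgeR). Knockout replicate 3 was the lowest library and the groups did not overlap. Fibroblasts also use this receptor, and the tested markers of embryonic fibroblasts mostly moved the other way. Of 8 tested, 7 rose and 0 fell, where 27.9% of all tested genes were called higher. The summed level of the list was 14.2 to 14.7 CPM in wild type and 43.8 to 49.1 CPM in the knockout. Tagln alone went from 2.21 to 21.7 CPM. Of the 14 listed markers, 6 were too low to be tested. Among these, Lum and Fap had 0 counts in every library. Summed counts in wild type and knockout were 26 and 15 for Prrx1, 8 and 9 for Col3a1, 2 and 5 for Dcn, and 0 and 5 for Postn. Tagln, Col6a2, Acta2 and Thy1 rose, at log2 fold changes of 3.28, 3.77, 4.65 and 1.92. Their part in the result was not tested.

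The endocytic genes split into a large fall, a moderate fall and small or uncalled differences. Cubn, which encodes the extracellular receptor cubilin, was at 21.3, 19.6 and 18.9 CPM in wild type and at 0.787, 0.819 and 0.60 CPM in the knockout. It fell 26.6-fold (-4.73 ± 0.16, adjusted p = 2.73e-08, edgeR), the largest fitted change of the 9 tested genes. Dab2, whose product links such receptors to clathrin, was at 5.89, 4.6 and 5.10 CPM in wild type and 2.77, 2.05 and 2.15 CPM in the knockout. It fell 2.21-fold (-1.15 ± 0.18, adjusted p = 0.000246, edgeR), with no overlap between the groups.

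Amn, which encodes the membrane anchor that cubilin needs to reach the cell surface, was at 1.97, 1.63 and 1.04 CPM in wild type and 1.32, 1.35 and 1.40 CPM in the knockout. The knockout libraries lay inside the wild-type range. The change was -0.20 ± 0.25 (adjusted p = 0.534, edgeR), and its 95% interval of -0.75 to 0.36 still allows a fall of that size. Wild-type replicate 1 held the highest value, and without it the estimate was 0.03 (adjusted p = 0.930).

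Lrp2, which encodes megalin, a giant receptor of the LDL receptor family, was by far the highest of the genes in CPM. It was at 72.8, 65.7 and 67.0 CPM in wild type and 60.4, 50.3 and 38.4 CPM in the knockout, so the groups were apart but the knockout libraries were spread. The fall was 1.38-fold (-0.46 ± 0.15, adjusted p = 0.0196, edgeR). This call ended with total counts as the scaling (-0.33, adjusted p = 0.110), without wild-type replicate 1 (-0.41, 0.0780) and without knockout replicate 2 (-0.47, 0.0649). It also ended once trends with transcript length and GC content were taken out of every library (-0.06, 0.422). Lrp2 has the longest transcript of the 10 genes, 15460 bases, and the 2964 tested genes with the longest transcripts (5155 bases or more) had a median log2 fold change of -0.18, against 0.08 for the 2969 with the shortest. In knockout replicate 3, the lowest library for Lrp2, the median deviation of those longest genes was -0.29 on the log2 scale. The part of this trend in the Lrp2 result beyond the value with it removed was not tested. Cubn, with 11262 bases, stayed at -4.51 with the trend removed (adjusted p = 6.44e-09).

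**Figure D2:**
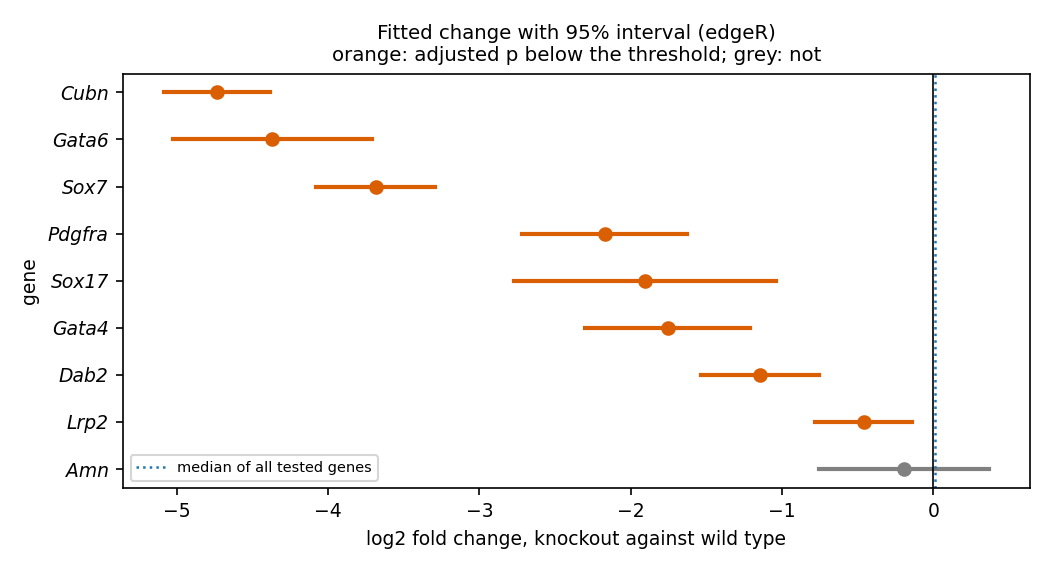
Fitted log2 fold change of the 9 tested genes, knockout against wild type, with 95% intervals from edgeR; the dotted line is the median of all tested genes. Cubn, Gata6 and Sox7 lie at -4.73, -4.37 and -3.69, and the interval of Amn alone crosses 0.

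Ratios of a pair of genes within a library do not depend on the scaling between libraries. The ratios printed here are of raw counts. Each fold was taken from mean log2 ratios after 0.5 was added to every count, which matters where counts are low, as for Gata6. The count ratio of Cubn to Lrp2 was 0.293, 0.298 and 0.282 in wild type and 0.0130, 0.0163 and 0.0156 in the knockout, a 19.0-fold lower ratio. The ratio of Cubn to its anchor Amn was 10.8, 12 and 18.1 in wild type and 0.595, 0.606 and 0.429 in the knockout, 24.1-fold lower. Gata6 over Gata4 went from 0.640, 0.463 and 0.893 to 0.0685, 0.167 and 0.0952, 5.56-fold lower. In each of these 3 ratios the groups did not overlap, and the two-sided exact permutation test gave p = 0.1, the smallest that 3 against 3 allows. Sox7 over Sox17 was 8.58, 5.88 and 6.48 in wild type and 1.27, 1.86 and 7.5 in the knockout, where the single high value comes from the library with 2 Sox17 counts. Its groups overlapped (exact permutation p = 0.2). These 4 pairs were chosen with the values known, and with 4 ratios no adjusted p can reach the threshold in this design.

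Levels of different genes were compared per kilobase of the longest annotated transcript (GENCODE M21). In wild type the order was Lrp2 at 4.43 ± 0.241 CPM per kilobase, Sox7 at 2.43 ± 0.0928, Cubn at 1.77 ± 0.111, Gata4 at 1.66 ± 0.297 and Dab2 at 1.11 ± 0.139. Gata6 at 0.955 ± 0.142, Amn at 0.911 ± 0.277, Pdgfra at 0.610 ± 0.0854, Sox17 at 0.365 ± 0.0788 and Foxa2 at 0.172 ± 0.0127 followed (SD, n = 3). Neighbours in this order whose ranges of mean ± SD overlapped were Cubn and Gata4, Dab2 and Gata6, Gata6 and Amn, and Amn and Pdgfra. In the knockout the order changed. Lrp2 remained first at 3.22 ± 0.713 CPM per kilobase and Amn came next at 0.798 ± 0.0236, while Cubn stood at 0.0653 ± 0.0105 and Gata6 at 0.0443 ± 0.0194. As a share of the wild-type mean, the knockout kept 3.69% of Cubn, 4.64% of Gata6, 7.82% of Sox7, 44.7% of Dab2, 72.5% of Lrp2 and 87.6% of Amn.

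**Figure D3:**
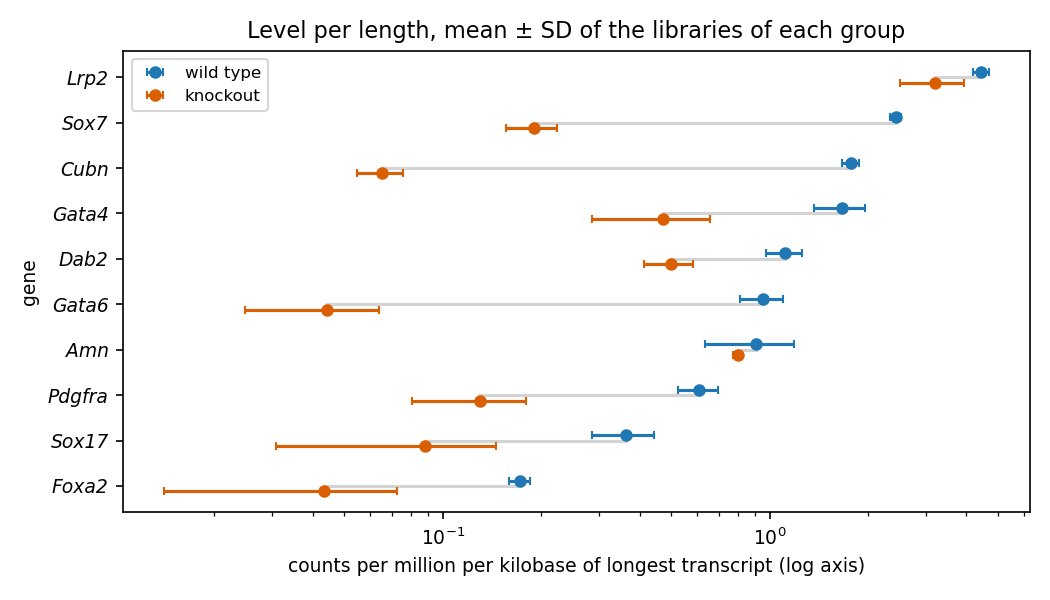
Level per kilobase of longest transcript (log axis), mean ± SD of 3 libraries, in wild type (blue) and knockout (orange), ordered by the wild-type level. Amn is seventh in wild type and second in the knockout, and Cubn and Gata6 move toward the bottom.

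The spread between replicates was larger for these genes than is usual in the table. The median coefficient of variation of CPM over the 10 genes was 13.2% in wild type and 30.1% in the knockout, against 6.79% and 14.1% over all tested genes. The genes were not matched to the others by level, and low counts alone raise this measure. Lrp2 and Cubn, which had the most counts in wild type, were at 5.45% and 6.25% there and at 22.2% and 16.0% in the knockout. Knockout replicate 3, the library with the fewest counts, was the lowest of its group in 7 of the 10 genes and in 45.3% of all tested genes. The wild-type libraries showed no such leaning, each being the lowest in 3 or 4 of the genes.

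The genes lie on 7 chromosomes. Gata4 and Sox7 share chromosome 14, Foxa2, Cubn and Lrp2 share chromosome 2, and Sox17, Pdgfra, Amn, Dab2 and Gata6 lie on chromosomes 1, 5, 12, 15 and 18. Tested genes had a median log2 fold change of -0.30 on chromosome 1 and -0.13 on chromosome 14, and between -0.04 and 0.08 on the other 5. The share of tested genes called lower was 46.1% on chromosome 1 and 37.8% on chromosome 14. It was 24.1% to 32.6% on the other 5 and 27.8% over all tested genes. The part of these shifts in the results was not tested. By gene order in GRCm38.p6, 6 protein-coding genes lie between Gata4 and Sox7. Of these 5 were tested: Fam167a fell (-1.01 ± 0.24, adjusted p = 0.00382), Tdh, which encodes threonine dehydrogenase, rose (0.56 ± 0.10, adjusted p = 0.000673), and Mtmr9, Xkr6 and Pinx1 were at 0.05, -0.04 and -0.22 without passing the test (edgeR). Next to Pdgfra lie the related receptor genes Kit and Kdr. Kit fell (-0.67 ± 0.10) and Kdr rose (1.69 ± 0.37).

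Other genes linked to endoderm were read from lists, and their counts stand beside the background of 27.8% lower and 27.9% higher. The basement membrane genes, which extraembryonic endoderm expresses strongly, mostly fell: of 12 tested, 9 fell and 2 rose, with a median of -1.28. The laminin genes Lama1 and Lamc1 fell by 2.59 and 1.84 on the log2 scale, the perlecan gene Hspg2 by 2.83 and Sparc by 1.18. The 2 that rose were P4ha1 and P4ha2, which encode subunits of collagen prolyl hydroxylase. The summed level of this list was 2059 to 2331 CPM in wild type and 707 to 975 CPM in the knockout. The primitive endoderm genes without Lrp2 summed to only 48.6 to 51.2 CPM in wild type. Which cells of the culture expressed the basement membrane genes was not tested.

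Products of mature visceral endoderm showed no common direction. Of 21 listed genes 9 were tested, 4 falling and 4 rising, with a median of -0.01. Ttr, Alb and Apoa4 had 0 counts in every library, and Afp had a total of 1 count in wild-type and 0 in knockout libraries. Lefty1, which the list also holds and which was the highest of it, was at 85.2 CPM in wild type and 84.5 CPM in the knockout, and the whole list summed to 105 to 110 CPM against 96.7 to 116 CPM. Spink3 and Apom fell (-1.83 and -1.66), and the retinol carrier gene Rbp4 and the fibrinogen gene Fgg rose (2.16 and 2.33) from low levels. Of the parietal endoderm markers, 2 of 5 tested fell, Vim (-0.70) and Fst (-1.78), and Plat, which encodes tissue plasminogen activator, rose (2.05).

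Among 10 other transcription factor genes of endoderm, 6 were tested. Hhex fell (-0.79 ± 0.22), Foxa3 rose (0.60 ± 0.18) and 4 were not called, among them Hnf4a (-0.75, adjusted p = 0.0631, edgeR). The Foxa3 call was lost without wild-type replicate 1, without wild-type replicate 2 and without knockout replicate 2, which left 0 higher genes in this list. Of the GATA and SOX relatives and the GATA cofactors, 3 of 7 were tested: Gata2, a factor of blood and trophoblast, fell (-2.11 ± 0.22), and Gata1 and the GATA cofactor gene Zfpm1 rose (1.45 ± 0.31 and 0.67 ± 0.20). Zfpm1 was at 4.46 ± 0.456 CPM in wild type and 7.03 ± 1.96 CPM in the knockout.

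**Figure D4:**
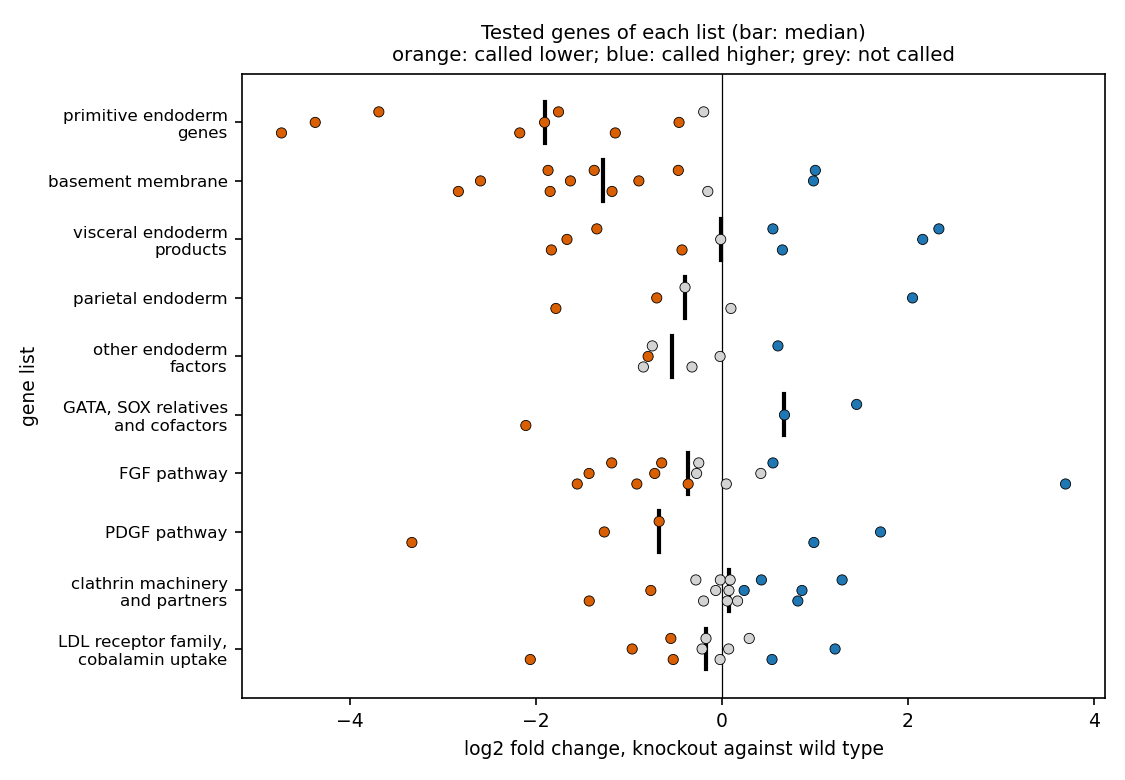
Log2 fold change, knockout against wild type, of each tested gene of the primitive endoderm genes and 9 related lists; orange points were called lower, blue points higher and grey points neither, and the bar is the list's median. The primitive endoderm and basement membrane rows lie mostly left of 0, with medians of -1.90 and -1.28, and the clathrin row centres near 0.

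Signals upstream of the programme were mixed. In the FGF list 7 of 13 tested genes fell and 2 rose, with a median of -0.36. Fgf4, the ligand that stem cells secrete, was at 221 ± 7.13 CPM in wild type and 228 ± 25.6 CPM in the knockout and did not pass the test (0.05 ± 0.11, adjusted p = 0.722, edgeR). Of its receptors, Fgfr3 fell (-1.43), Fgfr1 was called lower at -0.36 and Fgfr2, the receptor associated with primitive endoderm, rose (0.55). The Fgfr1 call lay close to the threshold (adjusted p = 0.0485, edgeR), and its groups overlapped. The adaptor genes Gab1, Grb2 and Frs2 fell by 1.55, 1.18 and 0.91 on the log2 scale. In the PDGF list, the ligand gene Pdgfc fell from 27.6 ± 0.685 to 2.77 ± 0.419 CPM and Pdgfa, a ligand of PDGFRA, from 31.4 ± 1.41 to 13.0 ± 1.90 CPM. Pdgfb and the sister receptor gene Pdgfrb rose (1.70 and 0.99).

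The general uptake machinery centred near 0. Of 15 genes of clathrin coats and receptor partners 2 fell and 5 rose, with a median of 0.08. Lrpap1, the chaperone of megalin, was at 62.4 ± 4.45 CPM in wild type and 65.0 ± 3.53 CPM in the knockout (0.06 ± 0.10, adjusted p = 0.625, edgeR). Cltb and Ap2m1 fell (-1.43 and -0.76), and Myo6, a motor of endocytic vesicles, and Rab11a, a regulator of receptor recycling, rose (1.29 and 0.86). Among relatives of megalin and genes of cobalamin uptake, 4 of 11 tested fell and 2 rose. Lrp1 and Lrp5 fell (-2.06 and -0.96), while Tcn2 and Cd320, the carrier and the cellular receptor for cobalamin outside the gut and kidney route of cubilin, rose (1.22 and 0.54).

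Markers of other lineages of the blastocyst and of stem cells moved both ways. Of the trophectoderm markers 3 of 5 tested rose (Krt8, Krt18 and Tfap2c) and Tead4 fell, with summed levels of 75.7 to 78.0 CPM in wild type and 110 to 120 CPM in the knockout. Cdx2, which defines trophectoderm, had summed counts of 19 (wild type) and 7 (knockout). Of the mesoderm markers 1 of 5 tested rose and 0 fell, at summed levels of 3.40 to 4.98 CPM against 4.79 to 5.73 CPM. Of the 10 pluripotency markers 6 fell and 2 rose, Sox2 (0.40) and Dppa5a (0.76). Klf4, Tfcp2l1, Sall4 and Utf1 fell (-0.97, -1.23, -0.93 and -0.64), and the list's median of -0.39 was smaller in size than that of the endoderm genes.

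The genes outside the list whose pattern was most like its median were found by the root mean square distance of log2 CPM over the 6 libraries, each gene taken relative to its wild-type mean. Among 12889 candidates with at least 1 CPM in wild type, the closest were Tll1, Lrrc4, Alas2, 4933400F21Rik and Pcdhgb7, at distances of 0.14, 0.17, 0.17, 0.17 and 0.18. Their log2 fold changes ran from -2.0 for Alas2 to -1.67 for Pcdhgb7. With 2 groups of 3 such a likeness mainly reflects a change of the same size.

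In the authors' deposited table, 9 of the 10 genes were lower at an adjusted p under 0.05 and Amn was not. Its log2 fold changes were -4.56 for Cubn, -3.84 for Gata6, -3.51 for Sox7, -2.06 for Pdgfra and -0.45 for Lrp2. Over the 9 tested genes, the values of that table and of edgeR differed by at most 0.53.

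**Figure D5:**
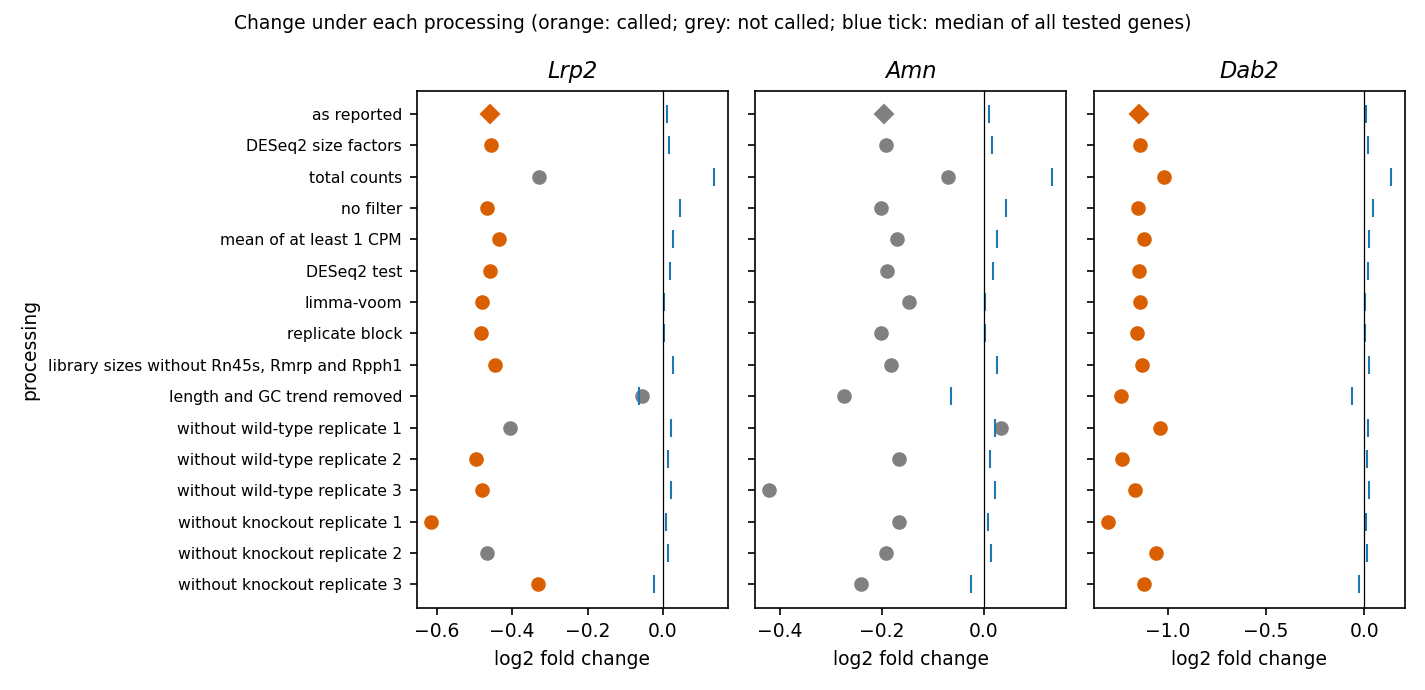
Log2 fold change of Lrp2, Amn and Dab2 under each processing (diamond: as reported), with a blue tick at the median of all tested genes; orange points were called and grey points were not. Dab2 was called under all of them, Amn under none, and Lrp2 lost its call under 4.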

How the data were processed

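Sequenced RNA of mouse embryonic stem cells was measured, and the 6 wild-type and knockout libraries were used. The deposited table gives raw counts per gene symbol; per the submitters' processing notes, mm9, HTSeq 0.6.1, TopHat2 2.0.10 and DESeq2 were used. The strand setting and annotation are not known here, so overlapping and antisense genes are uncertain. Symbols in 27 rows had become dates. The authors' deposited comparison holds, per the file headers, p-values raw and adjusted, a score (Wald), a mean signal (normalized count) and a log2 fold change with its error.

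Here edgeR 4.0.16 in R 4.3.3 (quasi-likelihood test, two-sided, TMM, filterByExpr) was fitted to 14988 genes, with Benjamini-Hochberg adjustment and a threshold of 0.05. The standard error is the log2 fold change divided by the square root of F, and log2 CPM used a prior count of 2. The members and the 14 gene lists were chosen with earlier results of these data known. Named from each list were up to 4 called genes with the smallest adjusted p, and genes with 0 counts throughout. Chosen after their values were seen were P4ha1, P4ha2, Hnf4a, Afp, Lefty1, Pou5f1, Nanog, Kdm5d, Fgf4, Fgfr1, Fgfr2, Pdgfrb, Lrpap1 and Cdx2. So were Sox2, Dppa5a, Prrx1, Col3a1, Dcn, Postn and the neighbours of Gata4 and Pdgfra. On simulated counts the test recovered 48% of genes changed 1.5-fold and 94% at 2-fold, of 50 genes each (14393 tested). The changed genes were at 1 CPM or more in wild type, far fewer genes changed than here, and both groups had the same spread. In the data the median coefficient of variation was 6.79% in wild type and 14.1% in the knockout. The recovery of low genes such as Foxa2 and Sox17 is therefore not known. No replicates agreed within sampling noise (chi-square per gene of at least 3.90). Intervals of counts cover counting error only. Alternatives were other scalings, filters and tests (DESeq2 1.42.0, limma-voom 3.58.1), the replicate block, each library left out and, added after the data were seen, removal of each library's length and GC trend (98.9% of tested genes had both).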

Additional observations from a re-analysis of the deposited data

How the results depend on the processing

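The counts of genes called higher and lower stayed within 1.5 times of the reported ones under all 15 alternatives. The count of primitive endoderm genes called lower was 7 to 9, and 0 were called higher under any of them. It was 9 with no filter, where Foxa2 was tested, and 7 under a minimum mean of 1 CPM, where Sox17 was not. At an adjusted p under 0.01, 7 were called. Gata4, Gata6, Sox7, Pdgfra, Dab2 and Cubn kept direction and call under all 15, Sox17 under the 14 that tested it. With single libraries left out, Amn ran from -0.42 to 0.0344, uncalled throughout, and it reversed without wild-type replicate 1 (0.0344). The labels do not say whether the replicate numbers pair the samples, and the correlations do not settle it. Same-numbered libraries correlated at 0.21, -0.03 and 0.20 in their deviations from the group means. Libraries of different numbers ran from -0.22 (wild-type replicate 3 with knockout replicate 1) to 0.03. With the replicate block, 4670 genes were higher and 4682 lower, 8 of the primitive endoderm genes were lower and 0 higher. Of the list counts under the alternatives, 38 moved by more than 1.5 times, all of them counts of 5 or fewer as reported, and 382 did not. Depth limits Foxa2, Sox17 and Gata6, which had 7, 24 and 13 counts over the knockout libraries. The comparison with glucose deprivation was not made.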
